A study of Mus musculus with 12 samples.

Results

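The genes of the fetal and hypertrophic programme of cardiomyocytes, taken here as Nppa, Nppb, Myh6, Myh7, Acta1, Ankrd1, Xirp2, Fhl1, Csrp3 and Rcan1, were read on bead arrays of RNA from mouse hearts. Every probe that the platform annotation assigns to these symbols was taken. This gave 22 of 45281 probes. Of these, 19 were detected on enough arrays to be tested, so that all 10 genes were among the 14240 genes tested. The other 3, ILMN_1228343 and ILMN_2449798 of Xirp2 and ILMN_2437254 of Fhl1, were detected on no array, and these genes are described by their other probes.

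The series crossed a genotype with a virus, in adult males of the C57Bl/6J strain, with 1 heart on each of 12 arrays. Among VEGFR1-deleted hearts, 4 had received the VEGF-B virus (VEGFR1del_VEGFB) and 3 a scramble virus (VEGFR1del_Scramble). Among wild-type hearts, 2 had received the VEGF-B virus (WT_VEGFB) and 3 the scramble virus (WT_Scramble). VEGFR1, the receptor encoded by Flt1 that binds VEGF-B, was removed by tamoxifen in Cdh5-Cre-ERT2; Flt1 flox/flox mice. Cdh5 drives Cre in endothelial cells, so the deletion was not aimed at the cardiomyocytes in which the 10 genes are mainly expressed. The virus was an adeno-associated virus (AAV) given intraperitoneally, AAV-VEGF-B or AAV-Scramble. The labels give neither the time after injection nor the promoter that drives VEGF-B. They also do not say whether the wild-type mice carried Cre or floxed alleles or received tamoxifen.

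In the fetal heart, cardiomyocytes express the natriuretic peptides, skeletal alpha-actin and, in rodents, beta myosin heavy chain at high levels in the ventricle, and these fall after birth as alpha myosin heavy chain takes over. Under pressure load, stretch or neurohormonal stimulation, the adult ventricle can raise these genes again. Such a rise is widely used as a transcript readout of cardiac hypertrophy or strain, although its parts do not always move together.

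Values below are log2 signals after background correction and quantile normalization. Each fold change is a difference of group means on that scale, with its standard error (SE) from a single limma fit to all arrays, and a gene was called at a p under 0.05 after Benjamini-Hochberg adjustment over all genes. Arrays had median raw signals of 98.7 to 111.5, with 16685 to 18210 detected probes each. The targeted gene Flt1 (probe ILMN_1227926, whose place relative to the deleted part is not known) read 9.00, 9.36, 8.93 and 9.47 in VEGFR1del_VEGFB. It read 8.19, 8.46 and 11.56 in VEGFR1del_Scramble, 11.51 and 11.22 in WT_VEGFB, and 10.79, 10.90 and 10.91 in WT_Scramble. The library labelled VEGFR1del_Scramble replicate 3 thus had a wild-type-like Flt1 signal, so the main member values that rest on its group are also given on the other 11 arrays. Markers of ventricular cardiomyocytes were bright in every group, and their summed linear signal was 111316 to 113790 in VEGFR1del_VEGFB, 110169 to 115446 in VEGFR1del_Scramble, 108984 to 112284 in WT_VEGFB and 111539 to 113679 in WT_Scramble. The arrays read RNA of whole hearts, in which a change in the number of cells of a type and a change in RNA per cell cannot be told apart.

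Of the 5 comparisons made, the effect of VEGF-B virus in VEGFR1-deleted hearts alone held calls among the 10 genes (VEGFR1del_VEGFB, n = 4, against VEGFR1del_Scramble, n = 3). There, the atrial natriuretic peptide gene Nppa and the stretch-responsive gene Ankrd1 were higher and passed the test, and no member was lower and passed it (1.79% of all genes did). These are 2 of 10 genes, against 4.61% of all genes called in either direction and 2.82% called higher. The 10 fold changes had a median of 0.43 (all genes -0.01) and ran from -0.00 for Rcan1 to 1.17 for Myh7, with 9 above 0. At an unadjusted p under 0.05 there were 6 members, against 20.4% of all genes. On the gene probes, the groups of 7 members did not overlap, with VEGFR1del_VEGFB higher, which held for 8.98% of all genes. Without the library labelled VEGFR1del_Scramble replicate 3 the same Nppa and Ankrd1 calls stood, the median was 0.48, and 7.3% of 14116 genes were called, 4.71% higher. The authors' own value table was normalized in sets of arrays that fall along this comparison. The VEGFR1del_VEGFB arrays formed a set of their own. Both WT_VEGFB arrays and VEGFR1del_Scramble replicate 3 formed another, and the other scramble arrays the last. A difference between sets, if there was any, and the virus therefore cannot be told apart. The sets also divide the groups for VEGF-B in wild type, for the deletion with VEGF-B virus and for VEGFR1del_VEGFB against all other hearts.

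**Figure D1:**
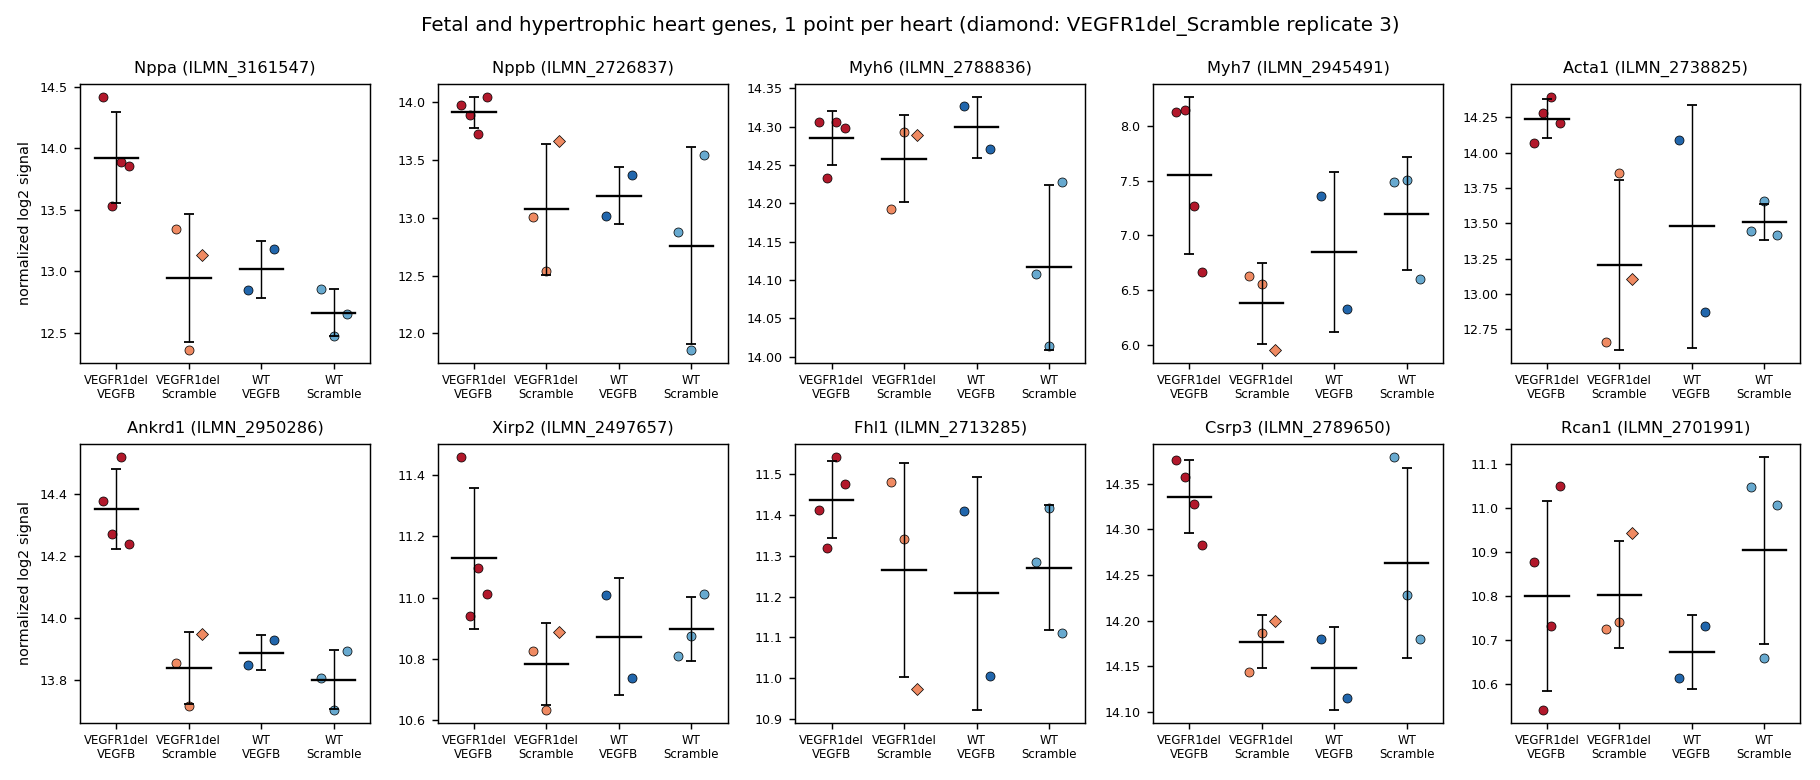
Normalized log2 signal of the gene probe of each of the 10 genes (vertical axis, 1 scale per panel) in the 4 groups, with 1 point per heart, the bar at the group mean and the whiskers at ± 1 SD. Diamonds mark the library labelled VEGFR1del_Scramble replicate 3. The 4 VEGFR1del_VEGFB hearts lie above all 8 others for Nppa, Nppb and Ankrd1, whereas Rcan1 and Fhl1 overlap between all groups.

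The natriuretic peptides are hormones that cardiomyocytes release under wall stress, and they promote sodium excretion and vessel relaxation. Nppa encodes the atrial and Nppb the B-type peptide, and in the RefSeq table (GRCm38.p6) they are neighbours on chromosome 4 with no gene between them. All 10 members were found in the RefSeq promoter table. The promoters of the members that stood above all other arrays are printed here, since all 4 VEGFR1del_VEGFB hearts lay above the 8 other hearts for these 3 genes. Each is the 250 bases before the RefSeq gene start, 5′ to 3′ on the gene's strand. The Nppa window is chr4:148000472-148000721 (plus strand), the Nppb window chr4:147985650-147985899 (plus strand) and the Ankrd1 window chr19:36119845-36120094 (minus strand).
Nppa: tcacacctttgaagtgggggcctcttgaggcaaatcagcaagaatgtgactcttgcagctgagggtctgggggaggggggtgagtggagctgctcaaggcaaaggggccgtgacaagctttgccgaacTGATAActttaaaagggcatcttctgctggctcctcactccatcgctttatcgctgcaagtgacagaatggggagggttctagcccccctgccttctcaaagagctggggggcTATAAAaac
Nppb: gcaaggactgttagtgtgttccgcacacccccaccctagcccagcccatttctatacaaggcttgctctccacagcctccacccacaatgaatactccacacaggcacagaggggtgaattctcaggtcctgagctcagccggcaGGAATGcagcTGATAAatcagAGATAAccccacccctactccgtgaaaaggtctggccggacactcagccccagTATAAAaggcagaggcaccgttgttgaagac
Ankrd1: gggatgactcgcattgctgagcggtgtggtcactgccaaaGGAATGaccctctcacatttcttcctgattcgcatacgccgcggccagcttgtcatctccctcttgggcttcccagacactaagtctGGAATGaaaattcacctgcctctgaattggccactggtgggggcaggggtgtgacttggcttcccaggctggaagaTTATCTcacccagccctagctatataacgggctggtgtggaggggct
Capitals mark exact matches on either strand to the MCAT element bound by TEAD factors (CATTCC, or GGAATG on the other strand), to GATA sites (AGATAA or TGATAA, or TTATCT or TTATCA on the other strand) and to the TATA box (TATAAA). The CArG and MEF2 boxes were searched by their usual definitions and had no match in these 3 windows. A GATA match was present in all 3 (1 in Nppa, 2 in Nppb and 1 in Ankrd1), against 16.6% of 32851 RefSeq promoters. MCAT matches numbered 1 in Nppb and 2 in Ankrd1 (12.6% of promoters hold at least 1), and TATAAA was found in Nppa and Nppb, 1 match each (12.4%). The motif CANNTG (E-box), which 66.2% of promoters hold, was found in all 3 and is not capitalised. The 3 windows were chosen by the expression of their genes. Of the other 7 members, MCAT matched in Myh6, Acta1 and 1 of the 2 starts of Myh7. TATAAA and the CArG box both matched in Acta1 and in 1 of the 2 starts of Fhl1, and the MEF2 box in Xirp2. AGATAA and TGATAA matched in none of them. The related forms AGATAG and TGATAG were not part of the motif search, and their share of all promoters was not counted. The letters of the windows hold them, on one strand or the other, in Myh6, Xirp2 and Csrp3. These are matches of letters, and binding of a factor was not measured.

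Nppa (ILMN_3161547) read 14.42, 13.53, 13.89 and 13.85 in VEGFR1del_VEGFB, against 13.35, 12.36 and 13.13 in VEGFR1del_Scramble. All 4 VEGF-B hearts lay above all 3 scramble hearts. The means were 13.92 ± 0.37 (SD, n = 4) and 12.95 ± 0.52 (SD, n = 3), so the gene was 1.97-fold higher with VEGF-B (log2 fold change 0.98, SE 0.23, adjusted p = 0.0337, limma). Without the library labelled VEGFR1del_Scramble replicate 3 the value was 1.07 (adjusted p = 0.0333). In wild-type hearts Nppa read 12.85 and 13.18 with VEGF-B and 12.86, 12.48 and 12.66 with scramble. These groups overlapped, and the fold change of 0.35 (SE 0.28, adjusted p = 0.592) was not past the threshold. The Nppa call rests on few hearts. It was lost when VEGFR1del_Scramble replicate 1 (1.17, adjusted p = 0.0631) or 2 (0.68, adjusted p = 0.135), or VEGFR1del_VEGFB replicate 1 (0.82, adjusted p = 0.0773), 3 (adjusted p = 0.0661) or 4 (adjusted p = 0.0551) was left out.

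Nppb (ILMN_2726837) read 13.98, 13.89, 13.73 and 14.05 in VEGFR1del_VEGFB, against 13.01, 12.54 and 13.67 in VEGFR1del_Scramble. The 4 VEGF-B hearts lay close together and above every other heart, but replicate 3 of the scramble group, the library with the wild-type-like Flt1 signal, read 13.67, next to 13.73 in the lowest of them. The 1.79-fold difference (log2 fold change 0.84, SE 0.32, adjusted p = 0.159) was not past the threshold, nor was it without that library (1.14, SE 0.34, adjusted p = 0.0632). WT_VEGFB read 13.02 and 13.37, and WT_Scramble read 12.87, 11.85 and 13.55, the widest spread of any group for this gene (SD 0.85, n = 3). In wild type the fold change was 0.43 (SE 0.39, adjusted p = 0.640).

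Ankrd1 encodes CARP, a muscle ankyrin repeat protein that binds titin in the sarcomere and also enters the nucleus, and it is induced by stretch and load. Both of its probes were called. ILMN_2950286 read 14.38, 14.27, 14.52 and 14.24 in VEGFR1del_VEGFB, against 13.85, 13.72 and 13.95 in VEGFR1del_Scramble (log2 fold change 0.51, SE 0.10, adjusted p = 0.0199). ILMN_2625451 read 13.17, 12.73, 12.85 and 12.91 in VEGFR1del_VEGFB, against 12.20, 11.46 and 11.92 in VEGFR1del_Scramble. No heart of the scramble group reached the VEGF-B hearts on either probe. The second probe gave a 2.08-fold difference (log2 fold change 1.05, SE 0.16), with an adjusted p of 0.0116 over 20312 probes, of which 3.62% were called. Without the library labelled VEGFR1del_Scramble replicate 3 the values were 0.57 (adjusted p = 0.0145) and 1.08 (adjusted p = 0.00894).

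The Ankrd1 probes had a Pearson correlation of 0.93 over the 12 arrays and differed in the size of the change. VEGFR1del_VEGFB was the highest group on both, but its hearts were ordered differently by the probes. WT_VEGFB had the next highest mean on ILMN_2950286 and the lowest on ILMN_2625451. The raw signal of ILMN_2950286 was 48.8% to 89.4% of the brightest probe of its array, and that of ILMN_2625451 was 10.0% to 33.4%. Whether the bright probe's range limits its fold change was not tested. In wild type, VEGF-B gave 0.09 (SE 0.12, adjusted p = 0.784) for ILMN_2950286 and -0.06 (SE 0.19, adjusted p = 0.927) for ILMN_2625451. On that probe WT_VEGFB read 11.71 and 11.94, within the WT_Scramble values of 11.83, 11.77 and 12.06 or just under them. The call of ILMN_2950286 was lost without VEGFR1del_Scramble replicate 1 (0.52, adjusted p = 0.0765) or 2 (0.45, adjusted p = 0.0922), and that of ILMN_2625451 without replicate 2 (0.86, adjusted p = 0.0587).

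Acta1 encodes skeletal alpha-actin, the sarcomeric actin that the ventricle re-expresses in hypertrophy. Its probe ILMN_2738825 read 14.07, 14.28, 14.40 and 14.21 in VEGFR1del_VEGFB, against 12.66, 13.85 and 13.10 in VEGFR1del_Scramble. The groups did not overlap, and the difference was 2.05-fold (log2 fold change 1.03, SE 0.27), with an adjusted p of 0.0505, just outside the threshold. It was 0.98 (adjusted p = 0.0884) without the library labelled VEGFR1del_Scramble replicate 3. The wild-type VEGF-B hearts differed widely, at 14.09 and 12.87, with the 3 WT_Scramble hearts at 13.45, 13.66 and 13.42 between them (log2 fold change -0.03, SE 0.33, adjusted p = 0.980). The hearts within VEGFR1del_Scramble and within WT_VEGFB thus lay farther apart than the group means that were compared. Actin transcripts are alike in sequence, and the probe sequences were not used here, so how far the probe reads other actins is not known. Markers of skeletal muscle, in which Acta1 is the main actin, were near background. Of their 10 genes 4 were tested and none was called, Actn3, Myh1, Myh4, Tnnc2 and Tnnt3 were not detected on enough arrays to be tested, and the summed signal was 147 to 316 in VEGFR1del_VEGFB and 187 to 210 in VEGFR1del_Scramble.

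**Figure D2:**
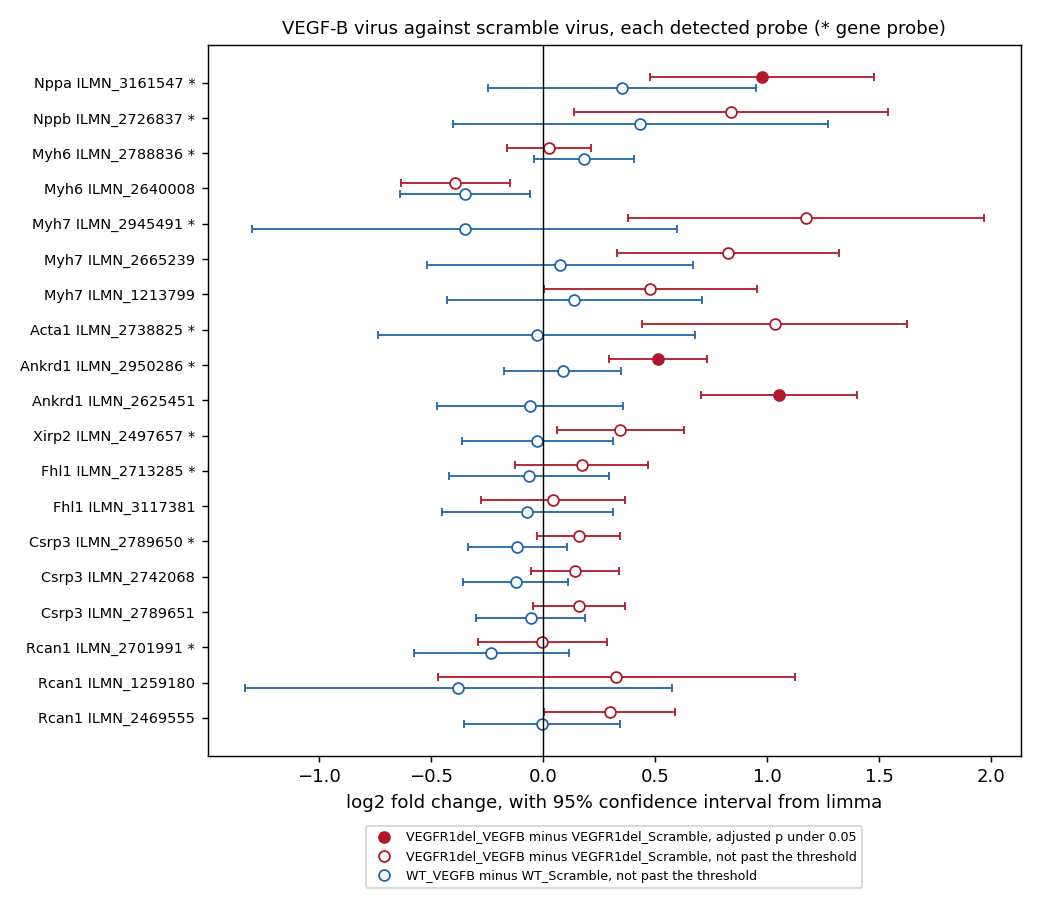
Log2 fold change with its 95% confidence interval for VEGF-B virus against scramble virus (horizontal axis) for each of the 19 tested probes, in VEGFR1-deleted hearts (red, upper of each pair) and in wild-type hearts (blue, lower). Filled points have an adjusted p under 0.05 (over genes for the probes with an asterisk, over probes for the others), which holds for Nppa and both Ankrd1 probes in VEGFR1-deleted hearts and for no probe in wild-type hearts.

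The myosin heavy chains set the speed of cardiac contraction. Myh6 encodes the fast alpha chain of the adult mouse ventricle and Myh7 the slow beta chain, and in the RefSeq table they lie side by side on chromosome 14 with Mir208a, Gm52092 and Mhrt between them. Myh7 (ILMN_2945491) read 8.13, 8.14, 7.27 and 6.66 in VEGFR1del_VEGFB, against 6.63, 6.56 and 5.95 in VEGFR1del_Scramble. All VEGF-B hearts were above all scramble hearts, the lowest of them at 6.66, next to 6.63. The 2.25-fold difference, the largest of the 10 genes on the 12 arrays, had an adjusted p of 0.0879 (log2 fold change 1.17, SE 0.37, limma). Without the library labelled VEGFR1del_Scramble replicate 3 it was 0.96 (adjusted p = 0.187), below Nppb (1.14), Nppa (1.07) and Acta1 (0.98). Over 21 alternatives the Myh7 value ran from 0.72 to 1.47. This probe was dim, with a raw signal of 0.56% to 1.45% of the brightest probe of its array. The other Myh7 probes gave 0.83 (ILMN_2665239, SE 0.23, adjusted p = 0.0646) and 0.48 (ILMN_1213799, SE 0.22, adjusted p = 0.255) and followed the first over the 12 arrays, with correlations of 0.90 and 0.83. On the other 11 arrays they gave 0.65 (adjusted p = 0.149) and 0.37 (adjusted p = 0.434). They lay near background, and on ILMN_1213799 VEGFR1del_VEGFB and VEGFR1del_Scramble overlapped. ILMN_2665239 was detected on 4 VEGFR1del_VEGFB arrays and on 1 of 3 VEGFR1del_Scramble arrays.

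The WT_Scramble hearts were not low for Myh7. They read 7.49, 7.50 and 6.60 on ILMN_2945491, above or level with VEGFR1del_Scramble, and WT_VEGFB read 7.36 and 6.33. In wild type the fold change with VEGF-B was -0.35 (SE 0.44, adjusted p = 0.760), and the deletion with scramble virus gave -0.82 (SE 0.39, adjusted p = 0.462). On ILMN_2665239 and ILMN_1213799, VEGF-B in wild type gave 0.08 and 0.14 (adjusted p = 0.935 and 0.864, limma). The deletion with scramble virus gave -0.37 and -0.12 on them (adjusted p = 0.644 and 0.917). VEGFR1del_Scramble, against which the Myh7 difference in VEGFR1-deleted hearts was set, had the lowest group mean on each probe, overlapping the next group. On ILMN_2945491 VEGFR1del_VEGFB was 0.71 above WT_VEGFB (SE 0.42, adjusted p = 0.572).

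The Myh6 probes differed from each other. ILMN_2788836, which was chosen for the gene because it is the brighter, read 14.23 to 14.31 in VEGFR1del_VEGFB and 14.19 to 14.29 in VEGFR1del_Scramble (log2 fold change 0.03, SE 0.09, adjusted p = 0.895, and 0.04 on the other 11 arrays). Its signal was 63.8% to 78.9% of the brightest probe of its array. ILMN_2640008 read 11.40, 11.73, 11.55 and 11.37 in VEGFR1del_VEGFB, against 12.02, 11.93 and 11.77 in VEGFR1del_Scramble. It was lower in every VEGF-B heart than in any scramble heart, by 1.31-fold (log2 fold change -0.39, SE 0.11, adjusted p = 0.0713), and without the library labelled VEGFR1del_Scramble replicate 3 it passed the threshold (-0.46, adjusted p = 0.0477).

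On ILMN_2640008 the wild-type groups were higher still, at 11.96 and 11.98 in WT_VEGFB and 12.41, 12.36 and 12.19 in WT_Scramble. The groups did not overlap in any of the 4 comparisons of a virus or a genotype, with the VEGF-B or VEGFR1-deleted hearts lower each time. Of all genes, the groups were separate in that direction for 8.85% (VEGF-B in VEGFR1-deleted hearts), 16.9% (VEGF-B in wild type), 7.02% (deletion with scramble) and 11.1% (deletion with VEGF-B). The fold changes were -0.35 for VEGF-B in wild type (adjusted p = 0.236), -0.42 for the deletion with scramble (adjusted p = 0.193) and -0.46 for the deletion with VEGF-B (adjusted p = 0.257), and none passed the threshold. These comparisons share groups and are not independent. The correlation of the 2 Myh6 probes over the 12 arrays was -0.75. The signal of ILMN_2640008 relative to ILMN_2788836 was -2.51 to -2.93 in VEGFR1del_VEGFB and -1.66 to -2.04 in WT_Scramble on the log2 scale, with no overlap. Because the probe sequences were not used here, the part of the transcript that each probe reads, or a share of Myh7 or other myosins in it, is not known, and the direction of Myh6 depends on the probe.

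The balance of Myh7 to Myh6 was taken per heart as a difference of log2 signals, which is read only between groups. With Myh6 ILMN_2640008, the group mean relative to WT_Scramble was 1.16 in VEGFR1del_VEGFB, -0.40 in VEGFR1del_Scramble and -0.00 in WT_VEGFB. With Myh6 ILMN_2788836 it was 0.19, -0.96 and -0.53 in the same order of groups. VEGFR1del_VEGFB had the highest mean by either probe. Its own SD was 0.65 with the first and 0.74 with the other (n = 4).

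**Figure D3:**
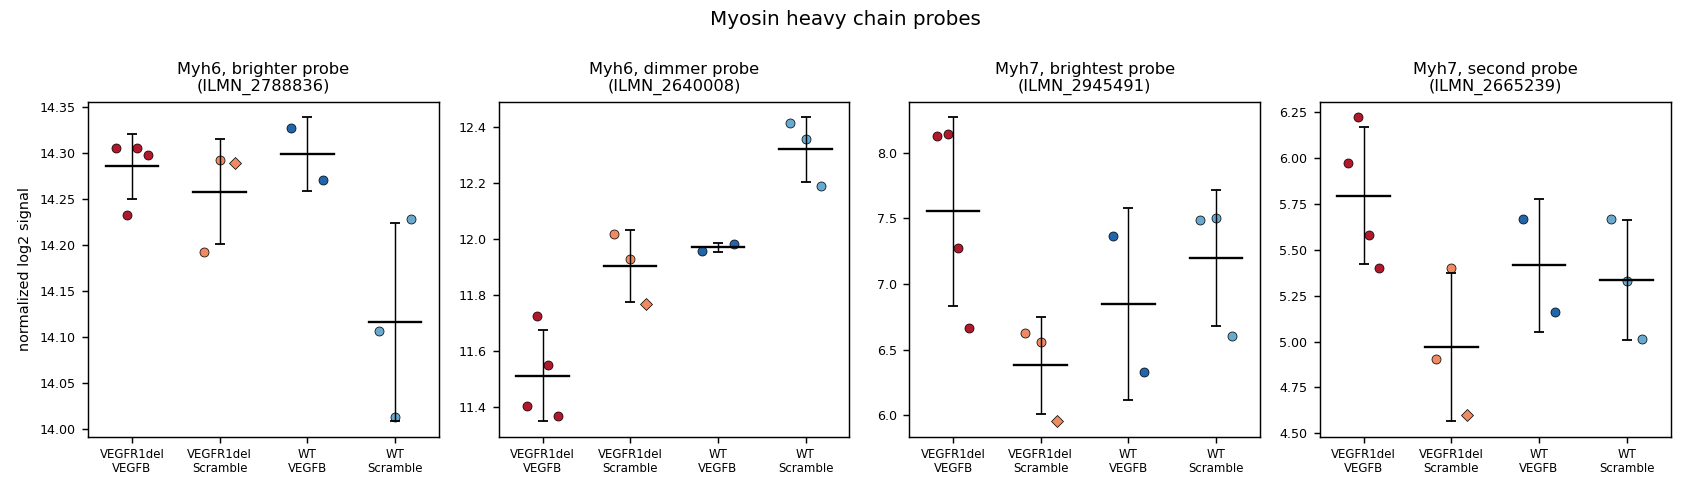
Normalized log2 signal of both Myh6 probes and of the 2 brightest Myh7 probes (vertical axes, 1 scale per panel) in the 4 groups, with 1 point per heart, bars at the mean and whiskers at ± 1 SD, and a diamond for the library labelled VEGFR1del_Scramble replicate 3. Myh6 ILMN_2788836 spans 14.01 to 14.33 over all hearts, while Myh6 ILMN_2640008 is at 11.37 to 11.73 in VEGFR1del_VEGFB and at 12.19 to 12.41 in WT_Scramble.

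Xirp2 encodes Xin actin-binding repeat protein, a component of the intercalated disc that binds actin. Its tested probe ILMN_2497657 read 11.46, 10.94, 11.10 and 11.01 in VEGFR1del_VEGFB, against 10.83, 10.63 and 10.89 in VEGFR1del_Scramble. The VEGF-B hearts were higher without overlap, by 1.27-fold (log2 fold change 0.34, SE 0.13, adjusted p = 0.154), which was not past the threshold, nor was the 0.40 on the other 11 arrays (adjusted p = 0.134). In wild type the fold change was -0.03 (SE 0.16, adjusted p = 0.964).

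Csrp3 encodes muscle LIM protein, a Z-disc protein of the cardiac stretch response. Its probe ILMN_2789650 read 14.38, 14.36, 14.33 and 14.28 in VEGFR1del_VEGFB and 14.14, 14.19 and 14.20 in VEGFR1del_Scramble, groups that did not overlap. The difference was small, 0.16 (SE 0.09, adjusted p = 0.319, and 0.17 with adjusted p = 0.336 on the other 11 arrays), and the WT_Scramble hearts, at 14.38, 14.23 and 14.18, covered it. The other probes gave 0.14 (ILMN_2742068, whose groups overlapped) and 0.16 (ILMN_2789651, whose groups did not). The signal of ILMN_2789650 was 63.0% to 80.0% of the brightest probe of its array. Csrp3 correlated between its probes at 0.51 and 0.40 over the 12 arrays, less closely than Ankrd1 or Myh7.

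Fhl1 encodes a LIM-only protein that takes part in hypertrophic signalling at titin. ILMN_2713285 read 11.32 to 11.54 in VEGFR1del_VEGFB and 10.97 to 11.48 in VEGFR1del_Scramble (log2 fold change 0.17, SE 0.14, adjusted p = 0.522), and the other tested probe, ILMN_3117381, gave 0.04 (SE 0.15, adjusted p = 0.905). The lowest VEGFR1del_Scramble heart on both was the library with the wild-type-like Flt1 signal, and without it the values were 0.03 and -0.11. The sign of the smaller value thus turned with that library, and neither value passed the threshold.

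Rcan1 encodes a regulator of calcineurin, and 1 of its transcripts is itself induced by calcineurin and NFAT, a pathway of cardiac hypertrophy. ILMN_2701991 read 10.88, 10.54, 10.73 and 11.05 in VEGFR1del_VEGFB and 10.73, 10.74 and 10.94 in VEGFR1del_Scramble, and the fold change was -0.00 with a 95% confidence interval of -0.29 to 0.29 (adjusted p = 0.994). On the other 11 arrays it was 0.07 (adjusted p = 0.836). The groups overlapped. ILMN_1259180 gave 0.33 (SE 0.37, adjusted p = 0.677), and its correlation with ILMN_2701991 was 0.84. ILMN_2469555 was detected on 2 VEGFR1del_VEGFB arrays and on no other array, so no fold change is read from it. Which transcript each probe reads was not determined here.

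For VEGF-B in the wild type, 2 WT_VEGFB hearts were set against 3 WT_Scramble hearts, and none of the 10 genes was called by limma, against 1.99% of all genes (284). On the gene probes none had an unadjusted p under 0.05, the fold changes ran from -0.35 for Myh7 to 0.43 for Nppb with a median of -0.03 (all genes -0.02), and 4 were above 0. On those probes Myh6 was the single gene whose groups did not overlap, higher by 0.18 on ILMN_2788836 (adjusted p = 0.435), while 17% of all genes did not overlap in that direction. Its other probe, ILMN_2640008, was separate in the opposite direction (-0.35, unadjusted p = 0.0219, adjusted p = 0.236). The intervals were wide with 2 hearts. For Nppa the 95% interval ran from -0.25 to 0.95 and for Nppb from -0.40 to 1.27, so that a change as large as the one in VEGFR1-deleted hearts lay within them for Nppb. For Ankrd1 the interval ran from -0.17 to 0.35 on ILMN_2950286 and from -0.48 to 0.36 on ILMN_2625451, below the fold changes in VEGFR1-deleted hearts. Those have intervals of their own, 0.29 to 0.73 on ILMN_2950286, which overlaps the wild-type interval, and 0.71 to 1.40 on ILMN_2625451. The difference between the genotypes is tested by the interaction below, which was not called for either probe.

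The deletion with scramble virus (VEGFR1del_Scramble, n = 3, against WT_Scramble, n = 3) gave no call among the members, against 0.0562% of all genes (8). The fold changes ran from -0.82 for Myh7 to 0.31 for Nppb, with a median of -0.05 (all genes -0.01) and none under an unadjusted p of 0.05. On the gene probes no member's groups were separate, against 8.15% of all genes in the higher and 7.02% in the lower direction. Without the library labelled VEGFR1del_Scramble replicate 3 no member was called either (0.0638% of all genes), with Nppb then at 0.02 and Myh7 at -0.61.

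The deletion with VEGF-B virus (VEGFR1del_VEGFB, n = 4, against WT_VEGFB, n = 2) gave no call by limma among the members or among all genes (0%), while 1572 genes and 3 members had an unadjusted p under 0.05. The 3 were Nppa (0.91, SE 0.26, adjusted p = 0.252), Ankrd1 (0.46, SE 0.12, adjusted p = 0.190, and 1.09, SE 0.18, adjusted p = 0.118 on ILMN_2625451) and Acta1 (0.76, SE 0.31, adjusted p = 0.394). Of the 10 genes, 9 were above 0, with a median of 0.36 (all genes 0.00). On the gene probes of 4, Nppa, Nppb, Ankrd1 and Csrp3, the groups did not overlap, with VEGFR1del_VEGFB higher, which held for 11% of all genes. This comparison shares the VEGFR1del_VEGFB hearts with the one above, so the values are not independent of it.

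Whether VEGF-B acted differently in the 2 genotypes was tested as the interaction in the same fit. No member and no gene was called by limma (0%), and 718 genes had an unadjusted p under 0.05. The 3 members under that level were Myh7 (1.52, SE 0.57, adjusted p = 0.976), Acta1 (1.06, SE 0.43, adjusted p = 0.976) and Ankrd1 (0.43, SE 0.16, adjusted p = 0.976). Ankrd1 ILMN_2625451 gave 1.11 (SE 0.25, adjusted p = 0.944) and Nppa 0.63 (SE 0.36, adjusted p = 0.995). Without the library labelled VEGFR1del_Scramble replicate 3 no member was called either. Myh7 was then at 1.31 and Acta1 at 1.01 (adjusted p = 0.863 for both), Ankrd1 at 0.48 (adjusted p = 0.820) and, on ILMN_2625451, at 1.14 (adjusted p = 0.742), and Nppa at 0.72 (adjusted p = 0.885). A call in VEGFR1-deleted hearts and none in wild type is therefore not a tested difference between the genotypes.

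Over all 4 groups, VEGFR1del_VEGFB had the highest mean on the gene probe of 8 of the 10 genes, the exceptions being Myh6 and Rcan1. The share of all genes with their highest mean in that group was not counted. For Myh7, Xirp2, Fhl1 and Csrp3 that group overlapped the next. For Nppa, Nppb and Ankrd1, 3 of the 10 genes, every VEGFR1del_VEGFB heart lay above all 8 other hearts, as held for 4.18% of all genes. Acta1 missed this by WT_VEGFB replicate 1 alone, at 14.09 against 14.07 in the lowest VEGFR1del_VEGFB heart. The order for Nppa, Nppb and Ankrd1 (ILMN_2950286) was VEGFR1del_VEGFB, WT_VEGFB, VEGFR1del_Scramble and WT_Scramble from high to low, and the last 3 overlapped with their neighbours. For Acta1 it was VEGFR1del_VEGFB, WT_Scramble, WT_VEGFB and VEGFR1del_Scramble, again with overlap among the last 3. Myh7 ILMN_2945491 had the same order as Acta1 with overlap at every step. On the other Myh7 probes, ILMN_2665239 and ILMN_1213799, WT_VEGFB came before WT_Scramble, also with overlap at every step. Myh6 ILMN_2640008 ran from WT_Scramble down through WT_VEGFB and VEGFR1del_Scramble to VEGFR1del_VEGFB, and its middle groups alone overlapped. VEGFR1del_VEGFB lay below all 8 other hearts on that probe, as 3.98% of genes did.

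Across the 12 arrays, which share normalization and group structure, Nppa and Ankrd1 had a Pearson correlation of 0.90, Nppb and Ankrd1 of 0.80 and Nppa and Nppb of 0.78. With group means taken out these were 0.55, 0.56 and 0.44. Acta1 and Myh7 correlated less closely with that trio over all arrays. Acta1 reached 0.59 with Ankrd1 and 0.28 with Nppb, and Myh7 reached 0.39 with Ankrd1 and 0.35 with Nppa. Acta1 correlated with Nppa at 0.35 over all arrays and at -0.74 within groups, so that within a group hearts with more Nppa tended to have less Acta1. Myh7 correlated with Nppb at 0.04 over all arrays and at -0.51 within groups. Myh7 was closest to Csrp3, at 0.75 and 0.59. Of 11008 other genes with a symbol, those most like Nppa over the 12 arrays were Casp2 (0.95), Zdhhc18 (0.94) and Tril (0.94). Those most like Ankrd1 were E2f1 (0.95), Pdia4 (0.95) and Fkbp1a (0.95). These are descriptions of 12 arrays and carry no test.

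The other genes of the cardiac hypertrophy programme were read in lists. Of 11 thick and thin filament genes, such as Myl2, Tnni3 and Actc1, none was called with VEGF-B in VEGFR1-deleted hearts, and the median fold change was 0.01. Nor was any of 18 Z-disc and titin genes (median 0.06), of which 15 were above 0. Among them, the Ankrd1 relatives Ankrd2 and Ankrd23, titin-binding ankyrin repeat genes, gave 0.37 (adjusted p = 0.128) and 0.33 (adjusted p = 0.392). Of 9 genes that process or receive natriuretic peptides none was called (median 0.08). Corin, the protease that activates the atrial peptide, gave -0.37 (adjusted p = 0.138), its receptor gene Npr1 gave -0.02 (adjusted p = 0.965), and Mme, a protease that degrades the peptides, gave -0.53 (adjusted p = 0.152). Without the library labelled VEGFR1del_Scramble replicate 3, Corin was called, at -0.55 (adjusted p = 0.0191), and so was 1 more stress gene, the matricellular Ccn2 (0.94, adjusted p = 0.0276, against 0.70 and 0.0975 on all arrays). Without that library 7.3% of all genes were called.

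Of 22 genes of calcineurin, NFAT and hypertrophic transcription none was called, with a median of 0.01 and a range of -0.28 to 0.34. They included the cardiac factors Gata4 (0.11, adjusted p = 0.688) and Tead1 (0.09, adjusted p = 0.699), which bind sites of the GATA and MCAT kind. Of 10 calcium handling genes 1 was called, Hrc, a histidine-rich calcium-binding protein of the sarcoplasmic reticulum, lower by 0.33 (log2 fold change -0.33, SE 0.09, adjusted p = 0.0444). Their median was -0.14, and Atp2a2, the calcium pump that often falls in the hypertrophied heart, gave 0.09 (adjusted p = 0.620). Of 17 other heart stress genes 2 were higher, Lgals3, the lectin galectin-3 (1.09, SE 0.27, adjusted p = 0.0415), and Ace, the angiotensin-converting enzyme (0.48, SE 0.10, adjusted p = 0.0239). In that list Nmrk2, a nicotinamide riboside kinase of muscle, was lower (-0.53, SE 0.12, adjusted p = 0.0289), and the median was 0.17. Among all genes, 2.82% were called higher and 1.79% lower in this comparison. The calls in these lists depended on the processing. Of 21 alternatives, Hrc was called in 6 (adjusted p up to 0.161), Lgals3 in 10 (up to 0.182), Nmrk2 in 13 (up to 0.209) and Ace in 16 (up to 0.102). In the other 4 contrasts none of these 6 lists held a called gene by limma on the 12 arrays. The median of 0.43 of the 10 members stood beside list medians between -0.14 and 0.17. Members and lists were chosen with earlier results of these data known, so this gap is a description and carries no test.

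**Figure D4:**
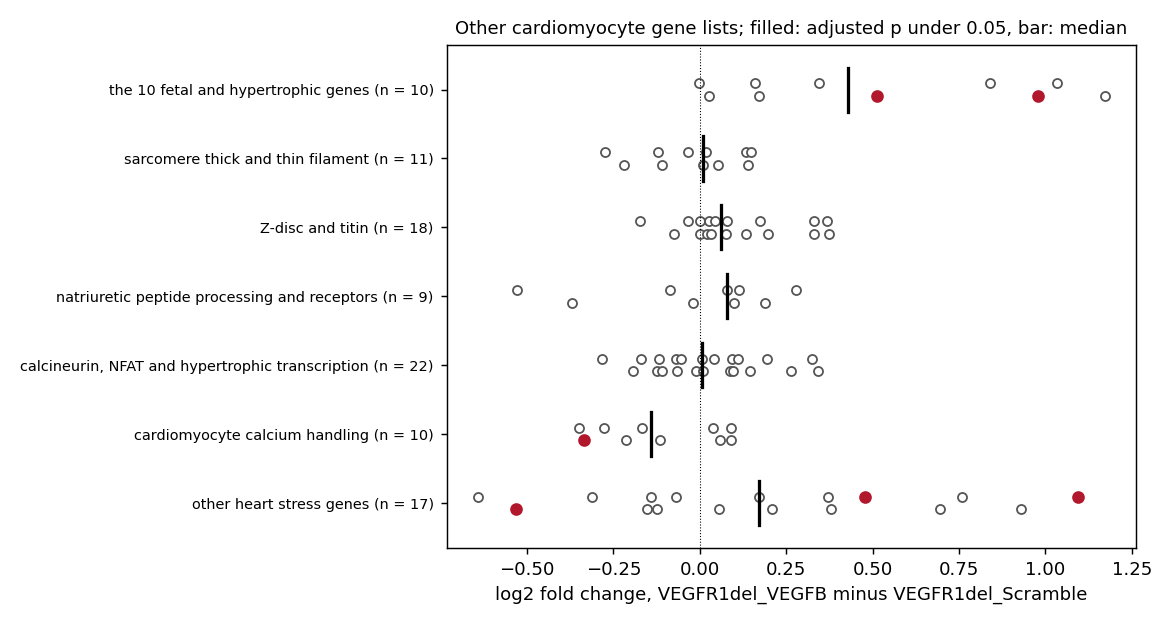
Log2 fold change of VEGFR1del_VEGFB minus VEGFR1del_Scramble (horizontal axis) for the 10 genes and for 6 lists of related cardiomyocyte and stress genes, with 1 point per tested gene, filled where the adjusted p was under 0.05, and a bar at the median of each list. The 10 genes have a median of 0.43 and a highest value of 1.17, and the 6 lists have medians of -0.14 to 0.17. Genes and lists were chosen with earlier results of these data known.

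Markers of other cells moved with some of these groups. Endothelial markers summed to 21931 to 23152 in VEGFR1del_VEGFB, 14282 to 18925 in VEGFR1del_Scramble, 17498 to 18223 in WT_VEGFB and 10685 to 11662 in WT_Scramble. For the virus in wild type, 8 of the 9 tested were above 0 (median 0.54). Of them, limma called 3 upward, against 1.99% of all genes called in either direction. The 3 were Cd93 (0.87, adjusted p = 0.0153), Egfl7 (0.78, adjusted p = 0.0173) and Emcn (0.73, adjusted p = 0.0173). When VEGFR1 was deleted, all 9 were above 0 for the virus (median 0.45). Of these, 6 were called, as for Cdh5 (0.76, adjusted p = 0.0156), against 2.82% of all genes called upward in that comparison. Of 7 macrophage markers 1 was higher there, Adgre1 (0.85, adjusted p = 0.0369, called in 13 of 21 alternatives), with sums of 2520 to 4367 in VEGFR1del_VEGFB and 2105 to 3138 in VEGFR1del_Scramble. Ventricular cardiomyocyte markers (9 tested, none called by limma) did not move with them, at a median of -0.03. Atrial markers bear on Nppa, which the atria express most. Of their 10 genes 6 were tested, and the atrial genes Bmp10, Myl7 and Sln were not detected on enough arrays to be tested. The atrial sum was 483 to 537 in VEGFR1del_VEGFB, below the 574 to 588 of VEGFR1del_Scramble, and Stard10 was lower (-0.62, adjusted p = 0.0107). Stard10 was also lower with VEGF-B in wild type (-0.56, adjusted p = 0.0306). With VEGF-B in VEGFR1-deleted hearts 3 of the 6 tested were above 0, with a median of 0.02, and the highest was Dkk3 at 0.86 (adjusted p = 0.0771). Markers of fibroblasts, smooth muscle, red cells, the conduction system and skeletal muscle held no called gene in this comparison on the 12 arrays. On the 11 arrays without the library labelled VEGFR1del_Scramble replicate 3, 7 endothelial markers were higher, 2 macrophage markers and 1 fibroblast marker. Among all genes 4.71% were called higher there. The markers gained, named after their values were seen, were Emcn (0.41, adjusted p = 0.0304), Cd163 (0.71, adjusted p = 0.0233) and Col3a1 (1.13, adjusted p = 0.0302). The part of these markers in the differences of the 10 genes was not tested.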

How the data were processed

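One table of raw signals was used as the source of all main values. It holds a probe intensity on a linear scale, neither normalized nor background-subtracted, and a detection p-value for each probe and array, per the file headers and as deposited. The authors also deposited log2 values, which proved to be quantile normalized within 3 separate sets of arrays. Their method is not given in the sources used here, and the sets are not stated to be batches. Total RNA from whole hearts was labelled as biotinylated cRNA, per the labels' protocols, and the series' design text counts each array as a separate mouse.

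Signals were background corrected from the detection p and quantile normalized over 12 arrays with neqc (limma 3.58.1, R 4.3.3, offset 16). Probes with a detection p under 0.05 on at least 2 arrays entered (20312), and a gene was its probe with the highest mean (14240 genes, 11009 with a symbol). Symbols came from the platform annotation table and were updated to the RefSeq symbol of the same Entrez gene identifier where RefSeq held it. The platform annotation names 1 gene for 34885 probes, several for 18 and none for 10378. A linear model with a mean for each of the 4 groups was fitted with lmFit and eBayes. It gave 5 contrasts (the virus in wild-type and in VEGFR1-deleted hearts, the deletion under scramble and under VEGF-B, and the interaction), two-sided, with Benjamini-Hochberg adjustment over all genes and a call at an adjusted p under 0.05. Further probes of a member were adjusted over all 20312 probes. Confidence intervals are at 95%. The number of arrays limits the precision.

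The 10 members and the gene lists were chosen with earlier results of these data known. Named genes are all members with every probe, Flt1, up to 4 called genes of smallest p from each list or marker list, list genes that share a role with a member, and the 3 genes most correlated with each called member. Corin, Ccn2 and the list examples without a call were named after their values were seen.

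Replicate numbers showed no sign of pairing the hearts (correlations of same-numbered deviations -0.04 to 0.11 over 15 pairs). Differently numbered hearts were not set beside these pairs. The fits were tested on simulated data. Alternatives for the background correction, offset, scaling, filter, probe choice, source of values, arrays in the fit, replicate block and normalization set were run, and each array was left out in turn. Promoter windows came from RefSeq (GRCm38.p6). The files name no genome build, so gene positions were not taken from them. Plots were made in matplotlib 3.10.9 under Python 3.11.15.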

Additional observations from a re-analysis of the deposited data

Results flagged for a closer look

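In the group of 4 VEGFR1del_VEGFB hearts, a single heart stood apart from the other 3 on 2 of the 19 tested probes. On Csrp3 ILMN_2789651, replicate 3 read 12.17 with the nearest heart at 12.29, and that gap was 0.91 of the group's whole range. On Myh6 ILMN_2788836, replicate 2 read 14.23 with the nearest heart at 14.30, a gap of 0.89 of the range. Both gaps exceed Dixon's 95% critical value for 4 samples. Chance does so in about 1 of 20 groups, and 19 probes were read here in 1 group of 4. Both gaps are small in log2 signal, and neither probe was called in any comparison.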

How the results depend on the processing

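Over the alternatives 1959 values of member probes were recomputed. Of these, 1925 kept their direction where called and their side of the threshold, 11 lost a call, 23 gained one and none of the called values reversed. Another 82 changed sign where neither value was called, and those are counted among the 1925. With VEGF-B in VEGFR1-deleted hearts 2 members were called, and the count was 3 without background correction, with offset 50 and with the replicate block. It was 4 with median scaling, 5 in the authors' value table, 1 with no filter (Nppa, adjusted p = 0.0757, was lost) and 0 with the compared groups alone (Nppa 0.0779, Ankrd1 0.0577), and ran from 0 to 3 as arrays were left out. The calls gained were Acta1 (adjusted p = 0.0245 to 0.0306), Myh7 (1.37 with median scaling, 0.82 in the authors' table, 1.47 with the replicate block, adjusted p = 0.0176) and Xirp2 in the authors' table (0.39). Myh6 ILMN_2640008 was called without background correction, with offset 50 and in the authors' table (adjusted p = 0.0165 to 0.0261). For the deletion with VEGF-B, Ankrd1 was called without background correction (1 member, adjusted p = 0.0429).

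Of all genes, VEGF-B in VEGFR1-deleted hearts called 656. The counts were 1081 without background correction, 1049 with median scaling, 1017 with offset 50, 507 with no filter, 1770 in the authors' table, 176 with the compared groups alone and 370 with the replicate block, and 28 to 1031 as arrays were left out (40 and 28 without VEGFR1del_Scramble replicates 1 and 2, 1031 without replicate 3). In wild type, 284 became 450, 553, 439, 222, 545 and 175 in the same order of settings, 275 with the replicate block, 3 with the normalization set as a fixed block, and 4 to 397 as arrays were left out (12 and 4 without WT_VEGFB replicates 1 and 2). The deletion with scramble called 8, and 97 without background correction, 107 with offset 50, 13 with each probe on its own, 95 in the authors' table, 1 with the compared groups alone, 5 with the set as a fixed block and 4 to 21 as arrays were left out. The deletion with VEGF-B called 0, and 63 without background correction, 4 with median scaling, 26 with offset 50, 93 in the authors' table, 3 with the compared groups alone and 0 to 6 as arrays were left out. The interaction called 0, and 0 to 1 as arrays were left out. The causes were not tested.

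With median scaling, the median over all genes was 0.12 in both VEGF-B comparisons, and higher genes made up 95.9% of the calls, against 61.1% with quantile scaling, in VEGFR1-deleted hearts (97.3% against 87.7% in wild type), so Acta1 and Myh7 are to be read against that shift there. Flt1 reversed in 2 settings, both through the library labelled VEGFR1del_Scramble replicate 3. It gave -2.73 for VEGF-B in wild type with the set as a fixed block, where that library alone links the sets, and 0.87 for VEGF-B in VEGFR1-deleted hearts without it (-0.82 to 0.87 as arrays were left out). The set as a random block had a consensus correlation of 0.00918 and kept both member calls. No fixed block of the set could be fitted in VEGFR1-deleted hearts. Where a wild-type VEGF-B heart was left out, the lone heart is assumed to vary like the other groups.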
